A study of Homo sapiens with 18 samples.

Results

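Short hairpin RNAs silence a gene by directing its messenger RNA to degradation, and hairpin 8 against EYA2 was given to both D425 and D458 cells. The contrast described here is the hairpin 8 effect in D458 minus the hairpin 8 effect in D425, where each effect is hairpin 8 against the non-targeting control hairpin of the same line. It uses 12 of the 18 libraries of the study, 3 in each of 4 groups (D425 control, D425 hairpin 8, D458 control, D458 hairpin 8), which the series describes as independent biological replicates. A gene was called when its Benjamini-Hochberg adjusted p, from edgeR's quasi-likelihood test over all genes, was under 0.05. EYA2, its family and MYC, MYCN and OTX2 are described whether called or not. A positive difference means a larger rise or a smaller fall in D458 than in D425. Called genes described as higher or lower in D458 are so in this response, not in their level. All errors of log2 values are standard errors with 3 libraries per group, and levels are CPM, counts scaled to a common library total with TMM factors.

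D425 and D458 are established cell lines of Group 3 medulloblastoma, a tumour of the cerebellum in childhood in which MYC is often amplified and genes of photoreceptor development are often active. EYA2 belongs to the eyes absent family, whose proteins carry a tyrosine phosphatase domain and act as transcriptional coactivators for homeobox factors such as SIX2. These factors bind DNA, DACH proteins act beside them, and the network is known from eye, muscle, ear and kidney development. With 2 lines compared, a difference cannot be told apart from any other feature in which D425 and D458 differ.

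Every group received a construct, so the controls also carried a vector. Cells of all groups were kept for 48 h in 1 µg/mL puromycin, which kills cells without the vector, sorted for the top 10% of zsGreen fluorescence and rested for 24 h, per the labels. Library totals ran from 21260369 to 31552051 counts over the 18 libraries. Of 25369 genes in the table, 14850 were tested. The labels give replicate 1 an earlier date than replicates 2 and 3, with 2 dates for replicate 1 of the lines and a single date for replicates 2 and 3. To follow the RNA of each line, gene sets were chosen from these same libraries, and their sums use library totals without TMM factors. A high sum in 1 line and a low sum in the other thus follow from the choice and do not test a library's line. The 34 genes with at least 5 CPM in every D425 library and a median under 0.1 CPM in D458 summed to 1090 to 1480 CPM in D425 hairpin 8. They summed to 0.837 to 0.907 CPM in D458 controls and to 1.27 to 3.74 CPM in D458 hairpin 8. The mirrored set of 22 genes summed to 1690 to 2570 CPM in D458 hairpin 8, to 0.38 to 1.08 CPM in D425 controls and to 0.976 to 3.77 CPM in D425 hairpin 8.

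EYA2, the targeted gene, did not pass the test of the difference. Its level in D425 was 43.6, 24.6 and 15.5 CPM in the controls and 17.5, 12 and 12.7 CPM with hairpin 8. In D458 it was 73.7, 67.5 and 69.8 CPM in the controls and 18.2, 23.5 and 19.3 CPM with hairpin 8. The D425 groups overlapped, with control replicate 3 below hairpin 8 replicate 1, while the D458 groups stood apart. The fall passed in each line, at -0.98 ± 0.27 (adjusted p = 0.017) in D425 and -1.79 ± 0.27 (adjusted p = 0.000506) in D458. The difference was -0.81 ± 0.38 (SE, adjusted p = 0.177), with a 95% interval of -1.61 to -0.01. With the replicate number as a block within each line it was -0.89 (adjusted p = 0.00668), without D425 control replicate 1 it was -1.28 (adjusted p = 0.00595), and within the date shared by replicates 2 and 3 it was -0.99 (adjusted p = 0.0175). The other tested family members did not pass: EYA1, present at 29.4, 27 and 26.9 CPM in D458 controls and with 3 counts in all D425 controls together, had a difference of -1.67 ± 0.81 (adjusted p = 0.193), and EYA3 one of -0.26 ± 0.16 (adjusted p = 0.314). EYA1 passed without D425 control replicate 1, at -4.70 (adjusted p = 0.0191), and rests on few D425 counts.

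Hairpin 8 had a different effect in the 2 lines on 1758 genes, 11.8% of those tested. The D458 response was higher for 919 (6.19%) and lower for 839 (5.65%), and 430 and 322 of these differed at least 2-fold. In single lines, hairpin 8 raised 1716 genes (11.6%) and lowered 1505 (10.1%) in D425, and raised 1792 (12.1%) and lowered 1650 (11.1%) in D458. Of the 1758 genes, 193 passed in opposite directions in the lines, 119 of them lower in D425 and higher in D458 and 74 the other way. A further 748 passed in D425 alone, 671 in D458 alone, 35 in both lines in the same direction with unequal size, and 111 in neither line by itself. The median difference over all genes was -0.02. With the replicate block 3934 genes passed, 1756 of the 1758 among them, and a fit to the 12 libraries alone called 1121. The count was 1048 without D425 hairpin 8 replicate 1, 1011 without D425 control replicate 2 and 946 without D425 control replicate 3, and 2221 genes passed within the shared date of replicates 2 and 3, with 1363 of the 1758 among them. The date of replicate 1 alone has 1 library per group and allows no test. Removing replicate 2 or replicate 3 from all groups, which leaves 2 libraries of different dates in each, left 75 and 102 genes.

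**Figure D1:**
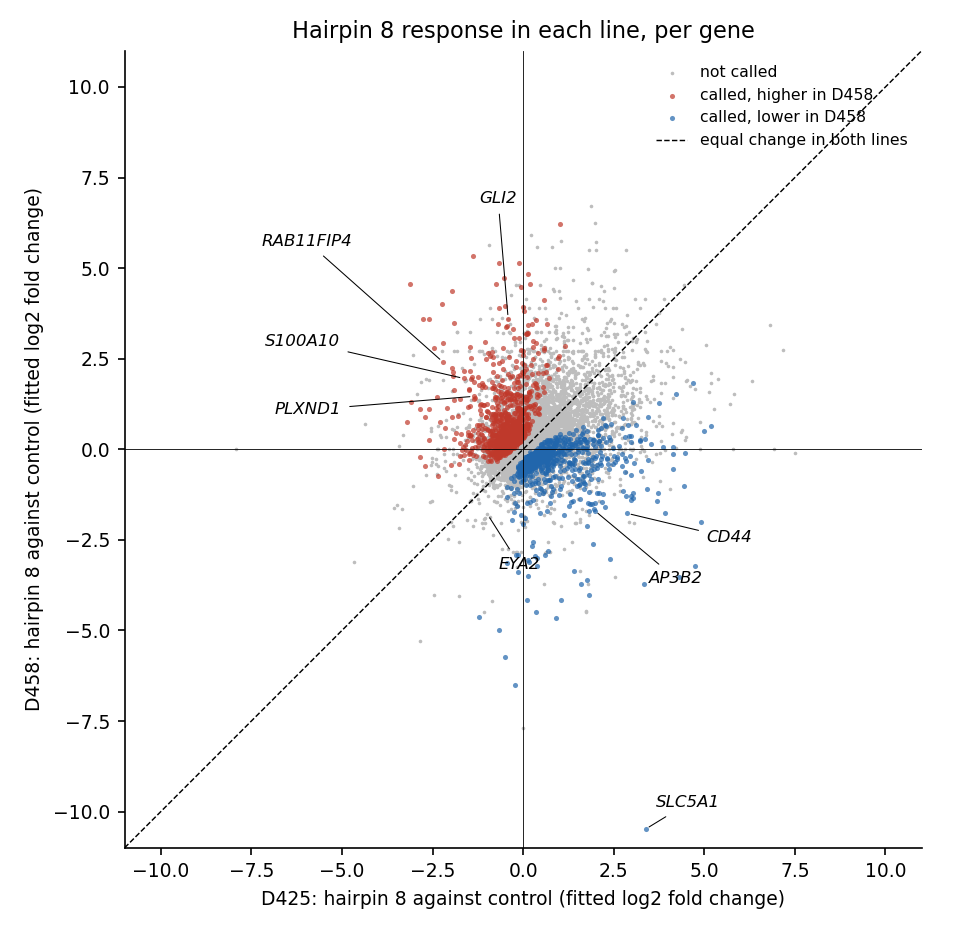
Each point is 1 tested gene, with its fitted log2 fold change for hairpin 8 against control in D425 on the horizontal axis and in D458 on the vertical axis; the dashed line marks equal change. Red points (the 919 genes called higher in D458, some sex-linked genes left out of the plot) lie above the line and blue points (the 839 called lower, likewise) below it, and genes with 0 counts in a group, such as SLC5A1, sit at positions that depend on the fit's prior count.

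Among genes called in opposite directions, RAB11FIP4, whose product links the small GTPase RAB11 to recycling endosomes, showed an exchange of levels between the lines. It stood at 16, 25.9 and 36.6 CPM in D425 controls and 6.82, 5.93 and 4.19 CPM in D425 hairpin 8. In D458 it stood at 3.38, 4.54 and 4.80 CPM in controls and 17.4, 23.4 and 26.8 CPM with hairpin 8. All D425 hairpin 8 libraries were below their controls and all D458 hairpin 8 libraries above theirs, and the D458 hairpin 8 values lay within the range of the D425 controls. The changes were -2.21 ± 0.26 (adjusted p = 7.67e-05) in D425 and 2.41 ± 0.27 (adjusted p = 5.23e-05) in D458, a difference of 4.62 ± 0.38 (SE, adjusted p = 4e-06). PLXND1, a plexin receptor for semaphorins, went from 57.2, 96.2 and 77.5 CPM to 26.5, 34.4 and 29.5 CPM in D425. In D458 it went from 28, 24 and 23.4 CPM to 59.3, 72.6 and 75.9 CPM. Both pairs of groups stood apart, and the difference was 2.82 ± 0.26 (SE, adjusted p = 1.05e-05). OGDHL, related to a subunit of the 2-oxoglutarate dehydrogenase complex of mitochondria, gave 7.20, 14.1 and 16.1 CPM in D425 controls, 3.23, 5.09 and 5.07 CPM in D425 hairpin 8, 2.89, 4.59 and 4.21 CPM in D458 controls and 12.1, 12.2 and 11.9 CPM in D458 hairpin 8. Its groups were also apart in each line, with a difference of 3.12 ± 0.39 (SE, adjusted p = 0.000151).

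Other genes that fell in D425 and rose in D458 started far lower in D458. S100A10, the partner of annexin A2 at the plasma membrane, gave 142, 159 and 130.0 CPM in D425 controls and 35.5, 47.2 and 56.2 CPM with hairpin 8, against 2.67, 1.27 and 0.876 CPM and 9.62, 4.09 and 4.80 CPM in D458. CXCL14, a chemokine, gave 61.7, 77 and 64.8 CPM and 13.3, 22.6 and 16 CPM in D425, against 0.222, 0.244 and 0.0417 CPM and 1.39, 0.304 and 0.637 CPM in D458. In both genes the D425 libraries with hairpin 8 all remained above every D458 library, and the groups of each line did not overlap. The differences were 3.59 ± 0.49 (adjusted p = 0.000437) and 4.22 ± 0.73 (adjusted p = 0.00211). CXCL14 had 11 counts in D458 controls and 59 in D458 hairpin 8. The 34 D425 genes above were also higher in sum in D458 hairpin 8 than in D458 controls. The part of this in the D458 rises of S100A10 and CXCL14 was not tested. The lysosomal protease gene CTSV fell from 343, 389 and 314 CPM to 110.4, 138 and 118 CPM in D425 and rose from 4, 5.28 and 4.76 CPM to 12.6, 9.74 and 8.79 CPM in D458, a difference of 2.67 ± 0.20 (adjusted p = 3.4e-06). BCMO1, the older symbol of the gene for the enzyme that cleaves beta-carotene to retinal, fell by 0.48 on the log2 scale in D425 and rose by 1.33 in D458, a difference of 1.80 ± 0.17 (adjusted p = 1.05e-05). MYADM fell 2.65-fold in D425 and rose 3.95-fold in D458, with a difference of 3.39 ± 0.68 (adjusted p = 0.00529).

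The opposite exchange, a rise in D425 and a fall in D458, was seen in AP3B2, a subunit of the neuronal form of the AP-3 vesicle coat. It gave 2.78, 2.05 and 2.13 CPM in D425 controls and 12.9, 5.67 and 8.75 CPM in D425 hairpin 8. In D458 it gave 37.1, 21.1 and 22.1 CPM in controls and 7.26, 8.39 and 9.26 CPM with hairpin 8. Controls of the lines lay far apart, while the 6 hairpin 8 libraries lay together between 5.67 and 12.9 CPM. The difference was -3.67 ± 0.42 (SE, adjusted p = 8.42e-05). CHRNA3, a subunit of neuronal nicotinic acetylcholine receptors, gave 4.06, 4.88 and 1.72 CPM and 9.78, 9.55 and 17.1 CPM in D425, against 11.9, 5.72 and 5.30 CPM and 4.17, 1.70 and 2.29 CPM in D458. Its difference was -3.26 ± 0.61 (adjusted p = 0.00373), and its groups were apart in both lines. LOC650368, a locus without a gene name in the table, gave 32.1, 21.1 and 21.6 CPM and 57.6, 63.5 and 62.7 CPM in D425, against 31.8, 19.5 and 22.1 CPM and 10.8, 9.48 and 10.9 CPM in D458. The control ranges of the lines overlapped for LOC650368 and the hairpin 8 groups parted to either side, a difference of -2.53 ± 0.24 (adjusted p = 1.27e-05). EFCAB4B, the older symbol of a gene for a calcium sensor of store-operated entry, rose by 0.60 on the log2 scale in D425 and fell by 2.92 in D458 (difference -3.52 ± 0.32, adjusted p = 1.05e-05). BPIFB4 (-5.42 ± 1.01, adjusted p = 0.00356), CCDC60 (-4.78 ± 0.81, adjusted p = 0.00178) and PNMA5 (-2.78 ± 0.49, adjusted p = 0.00228) passed in the same directions with separate groups in both lines. Their D458 changes rest on few counts in controls and hairpin 8: 40 and 5 for BPIFB4, 80 and 8 for CCDC60, and 115 and 46 for PNMA5. The BPIFB4 call was lost with limma-voom. CD44, the hyaluronan receptor, also passed in these directions with separate groups, at low level in both lines. It had 6 counts in D425 controls, 47 in D425 hairpin 8, 185 in D458 controls and 60 in D458 hairpin 8 (difference -4.64 ± 0.60, adjusted p = 0.00023).

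**Figure D2:**
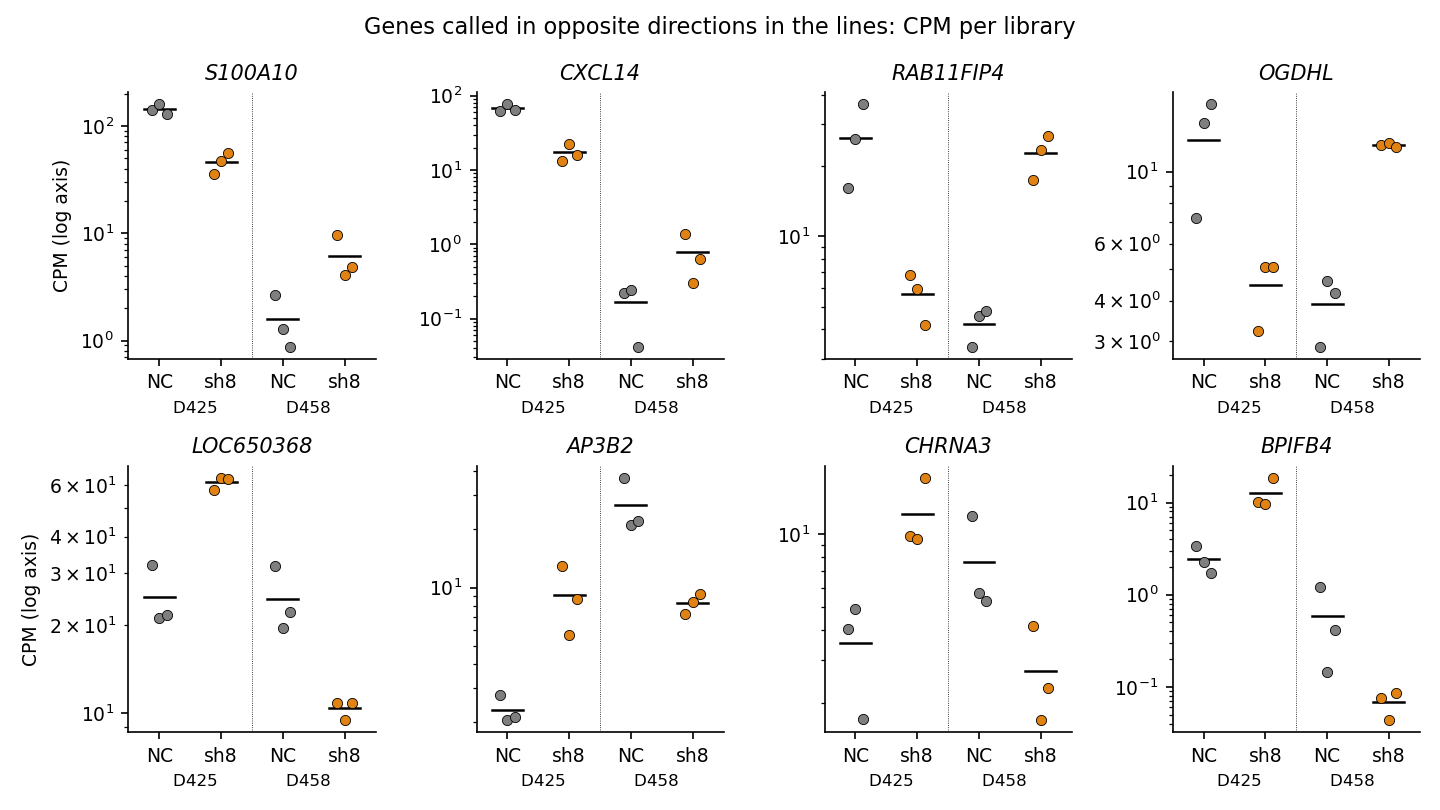
Each panel shows 1 gene called in opposite directions in the 2 lines, with 1 point per library (grey, non-targeting control; orange, hairpin 8), a bar at the mean of 3 libraries, and CPM on a log axis that differs between panels. In the upper row hairpin 8 is below control in D425 and above it in D458, as for RAB11FIP4 (difference 4.62), and in the lower row the order is reversed, as for AP3B2 (difference -3.67).

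The second hairpins of the lines, which take no part in the contrast, gave mean levels on the same side of their controls for the genes given here. RAB11FIP4 averaged 7.31 ± 0.962 CPM (SD, n = 3) with hairpin 6 in D425 and 23.4 ± 3.22 CPM with hairpin 7 in D458. AP3B2 averaged 7.62 ± 2.19 CPM with hairpin 6 in D425 and 8.72 ± 1.74 CPM with hairpin 7 in D458, and LOC650368 averaged 68.5 ± 5.24 CPM and 10.5 ± 1.03 CPM. These groups share their control libraries with the hairpin 8 comparisons, so they are not separate evidence of the direction. The level of the target differed between these groups: EYA2 averaged 11.8 ± 2.87 CPM with hairpin 6 and 14.1 ± 3.01 CPM with hairpin 8 in D425, and 48.1 ± 3.43 CPM with hairpin 7, 20.3 ± 2.77 CPM with hairpin 8 and 70.3 ± 3.16 CPM with the control in D458.

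Other genes passed in 1 line alone. PALD1, which encodes paladin, was at 87.8, 96.5 and 97.5 CPM in D425 controls and 86.8, 95.7 and 87.9 CPM with hairpin 8. In D458 it rose from 0.444, 0.489 and 0.667 CPM to 4.10, 3.56 and 3.10 CPM. The D425 groups overlapped and the D458 groups stood apart, with a difference of 2.79 ± 0.22 (SE, adjusted p = 3.4e-06). WNK2, a serine/threonine kinase, gave 60.7, 87.7 and 83.7 CPM and 65.8, 71.8 and 71.7 CPM in D425, where the groups overlapped, and 65.9, 94.7 and 91.1 CPM and 9.44, 11.2 and 12.7 CPM in D458, where every hairpin 8 library lay below every control. Its difference was -2.77 ± 0.24 (SE, adjusted p = 6.97e-06), in the direction opposite to most called genes of chromosome 9, on which it lies. GTSF1, a factor of small-RNA silencing in germ cells, went from 5.64, 7.92 and 7.72 CPM to 1.09, 1 and 1.49 CPM in D458, while its D425 change of 0.26 ± 0.14 (adjusted p = 0.19) did not pass. The difference for GTSF1 was -2.83 ± 0.23 (adjusted p = 3.4e-06). GAGE2C, of a cancer-testis antigen family with near-identical copies between which reads could be split, changed by -3.50 ± 0.23 (adjusted p = 2.1e-07) in D458 and by 0.15 ± 0.18 (adjusted p = 0.595) in D425. BRDT, a testis bromodomain protein, had 116 counts in D425 controls, 223 in D425 hairpin 8, 146 in D458 controls and 6 in D458 hairpin 8, a difference of -5.57 ± 0.88 (adjusted p = 0.00103).

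Several of the largest fitted differences rested on groups with few counts. SLC5A1, a sodium and glucose cotransporter, had 0 counts in D425 controls, 4 in D425 hairpin 8, 465 in D458 controls and 0 in D458 hairpin 8, at least 56.5-fold lower in D458 with 3 counts per library as the floor. Its call was lost without D425 hairpin 8 replicate 1, the only D425 library with any count (adjusted p = 1.0). CILP, a matrix protein, had 7 and 6 counts in the D425 groups and fell from 2744 to 32 counts in D458. The call for CILP was lost without D425 hairpin 8 replicate 1 (adjusted p = 0.136). NTSR1, the neurotensin receptor, had 0 and 11 counts in D425 and fell from 11.4, 7.09 and 8.59 CPM to 0.564, 1.09 and 1.27 CPM in D458. In the other direction, CRISPLD1 rose from 5 to 208 counts in D458 and had 625 and 394 counts in D425, where the change did not pass. NLGN1, a synaptic adhesion protein, rose from 2 to 68 counts in D458 and had 179 and 126 in D425. These low-count genes have wide errors, and the part of the other line's RNA (the sums of 22 and 34 genes above) in NTSR1 and ZNF732 was not tested. The zinc finger genes ZNF732 (325, 37, 0 and 8 counts in the order D425 control, D425 hairpin 8, D458 control, D458 hairpin 8) and ZNF141 (306, 64, 4 and 76 counts) belong to a family of similar copies and are uncertain.

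In the EYA network, the called member was SIX2, a partner of EYA proteins in the kidney. It gave 73.6, 91 and 98.6 CPM in D425 controls and 41.7, 54.6 and 50.4 CPM with hairpin 8, against 33.8, 33.8 and 32.2 CPM and 30.5, 35.4 and 31.5 CPM in D458. It fell in D425 with separate groups and did not pass in D458, where the groups overlapped, a difference of 0.81 ± 0.16 (SE, adjusted p = 0.00512). Of the 7 genes tested among SIX2, its homeobox relatives and the DACH genes, SIX2 alone passed, and 6 of 7 had a positive difference, with a list median of 0.33; 3 passed with the replicate block and 2 without D458 hairpin 8 replicate 2. In the MYC network 1 higher and 1 lower (8.33% and 8.33%) of 12 tested genes passed. MXD1, a repressor that also pairs with MAX, rose in D458 and did not pass in D425 (difference 0.93 ± 0.28, adjusted p = 0.0389); that call was lost without 9 of the 12 libraries, each left out in turn (highest adjusted p = 0.092). MGA, a repressor that pairs with MAX, went from 86.4, 75.5 and 70.6 CPM to 50.8, 55.1 and 46.8 CPM in D458 and did not pass in D425 (difference -0.81 ± 0.20, adjusted p = 0.0176); that call was lost without D458 control replicate 1 or D458 hairpin 8 replicate 3 (highest adjusted p = 0.055). MYC itself was at 3348, 3660 and 3736 CPM in D425 controls, 2314, 2756 and 2271 CPM in D425 hairpin 8, 3993, 4092 and 4058 CPM in D458 controls and 2903, 3521 and 3753 CPM in D458 hairpin 8. All hairpin 8 libraries were below the controls of their line, but the D458 change of -0.25 ± 0.10 (adjusted p = 0.0652) did not pass. The MYC difference of 0.29 ± 0.14 (adjusted p = 0.17) passed with the replicate block (adjusted p = 0.0319) and without D458 hairpin 8 replicate 1 (adjusted p = 0.0406). OTX2, a homeobox gene of Group 3 tumours, had a difference of 0.24 ± 0.17 (adjusted p = 0.379), which also passed with the block (adjusted p = 0.0348). MYCN had 7, 46, 1 and 1 counts in the order of groups above and did not pass.

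**Figure D3:**
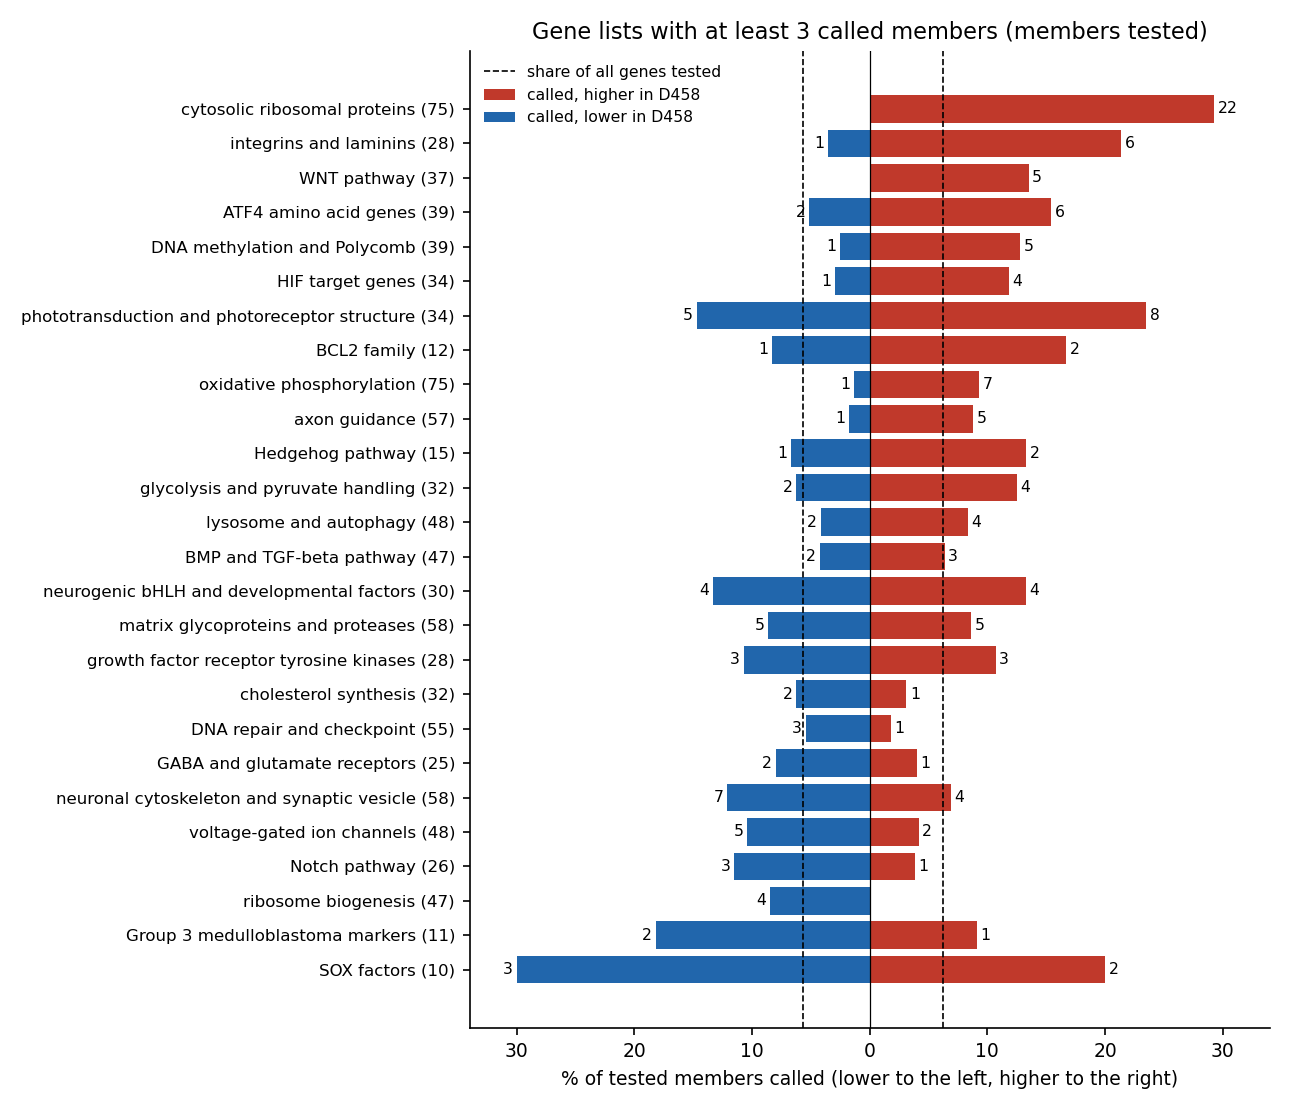
Bars give, for each gene list with at least 3 called members, the percentage of tested members (number in brackets) called higher (red, right) or lower (blue, left) in D458 than in D425, with the number of genes at the bar's end. The dashed lines mark the same percentages over all genes tested (6.19% higher, 5.65% lower), and the ribosomal protein genes (22 higher, 0 lower) extend farthest to the right.

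The genes of cytosolic ribosomal proteins, the protein components of the translation machinery, held the largest number of calls in a single direction among the 47 lists. Of 75 tested, 22 were higher in D458 (29.3%, beside 6.19% of all genes) and 0 lower; at an unadjusted p under 0.05 there were 33. In all, 65 of 75 had a positive difference, with a median of 0.25 beside -0.02 for all genes. The medians were -0.16 in D425, where 21 members fell and 0 rose, and 0.07 in D458, where 6 rose and 0 fell. Their messenger RNAs are known to begin with a C followed by a run of pyrimidines, the terminal oligopyrimidine tract, through which their translation is controlled. Start sites of 6 called members are shown because this tract is what the family shares beyond its function. They were chosen after their values were seen, 4 from chromosomes 9 and 20 and 2 from elsewhere. Each has 15 bases before and 15 from the start as listed by RefSeq on GRCh38.p14, 5′ to 3′, with the run of C and T around the start in capitals:
RPL12 (chr9:127451392-127451421, minus strand): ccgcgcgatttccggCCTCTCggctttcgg
RPL7A (chr9:133348203-133348232, plus strand): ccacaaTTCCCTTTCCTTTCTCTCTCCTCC
RPL35 (chr9:124861943-124861972, minus strand): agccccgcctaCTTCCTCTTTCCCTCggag
RPS21 (chr20:62387088-62387117, plus strand): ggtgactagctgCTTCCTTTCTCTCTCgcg
RPL24 (chr3:101686704-101686733, minus strand): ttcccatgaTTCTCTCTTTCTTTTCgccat
RPL13A (chr19:49487593-49487622, plus strand): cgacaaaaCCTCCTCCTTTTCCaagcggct

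Among genes with exactly 1 listed start, a C at the start followed by 4 bases that are each C or T was present in 40 of 50 ribosomal protein genes (80.0%) and in 402 of 7555 of all genes tested (5.32%). It was present in 13 of 14 called and 27 of 36 uncalled ribosomal protein genes, so most members of either kind held it. Over the genes called higher it was present in 34 of 453 (7.51%), and over those called lower in 17 of 432 (3.94%). The MEF3 motif (TCAGGTTTC), bound by SIX2 relatives and searched on both strands in the 250 bases before the start, was present in 20 of 7555 genes tested, in 0 of 453 called higher and in 1 of 432 called lower. A match describes the letters in this window only.

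RPL12, a protein of the large subunit's stalk base, was called in opposite directions. It gave 1538, 1845 and 2057 CPM in D425 controls and 1076, 1252 and 1326 CPM with hairpin 8, against 1435, 1489 and 1498 CPM and 2185, 1931 and 2023 CPM in D458. Every hairpin 8 library was below the controls in D425 and above them in D458, a difference of 1.05 ± 0.15 (SE, adjusted p = 0.000437). RPL7A gave 2099, 2649 and 2852 CPM and 1234, 1600 and 1397 CPM in D425 against 2248, 2185 and 2202 CPM and 2444, 2413 and 2592 CPM in D458, a difference of 1.01 ± 0.15 (adjusted p = 0.000684). RPL35 had a difference of 0.77 ± 0.12 (adjusted p = 0.000897). These 3 genes lie on chromosome 9, whose genes had a median D425 response of -0.38. Outside chromosomes 9 and 20, 18 of 70 members passed (25.7%, beside 5.10% of all genes there), with a median of 0.24. Per library, the median deviation of the family from the line's control mean was -0.294, -0.17 and -0.0134 (log2) in D425 hairpin 8 and 0.0734, 0.0051 and 0.0876 in D458 hairpin 8. The controls gave -0.0127, -0.0574 and 0.0679 in D425 and 0.0353, -0.0491 and 0.013 in D458, so D425 hairpin 8 replicate 3 and D458 hairpin 8 replicate 2 lay among the controls of their lines. With hairpin 6 in D425 it was -0.109, -0.0108 and 0.00803, and with hairpin 7 in D458 it was 0.16, -0.0211 and 0.145. The count was 10 without D425 hairpin 8 replicate 1, 14 without D425 control replicate 2 and 9 without D425 control replicate 3, 41 with the replicate block, 14 in the fit to the 12 libraries alone, and 2 and 1 without replicate numbers 2 and 3. Many of these genes have processed pseudogenes that can share their reads.

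**Figure D4:**
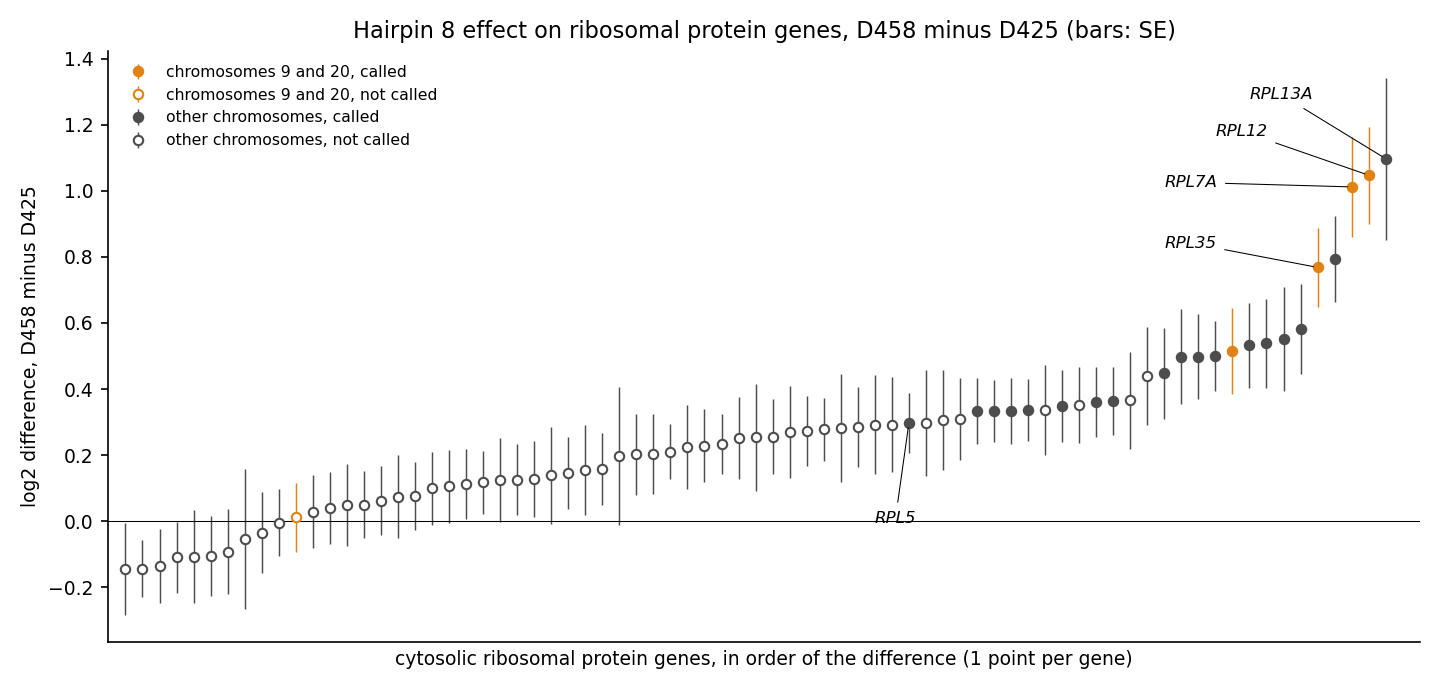
Points give the log2 difference (D458 minus D425) of each of 75 cytosolic ribosomal protein genes, in order of size, with bars of 1 SE; filled points are called genes, and orange marks chromosomes 9 and 20. All 22 filled points lie above 0, from RPL5 (0.30) to RPL13A (1.10).

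Of 47 ribosome biogenesis genes, 0 were called higher and 4 lower (8.51%, near the 5.65% of all genes), 7 of 47 had a positive difference, and the median was -0.17. Within lines, 24 of them fell in D458 and 7 in D425. UTP20, a factor of the small-subunit processome, went from 189.6, 132 and 139.9 CPM to 74.8, 94.1 and 83 CPM in D458 and from 133, 116 and 113 CPM to 152, 148 and 115 CPM in D425, a difference of -1.07 ± 0.20 (adjusted p = 0.00397). NOP10, of the box H/ACA particles that modify ribosomal RNA, had a difference of -0.43 ± 0.10 (adjusted p = 0.0142). With the replicate block 2 higher and 12 lower passed, and the count was 2 without D425 control replicate 2.

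Called genes were not spread evenly over the genome. Chromosome 9 held 137 genes higher in D458 and 17 lower among 399 with at least 8 CPM (34.3% and 4.26%, beside 7.03% and 6.63% of all 9840 genes at that level). The median difference on chromosome 9 was 0.34, with a median of -0.38 for the D425 response and -0.01 for the D458 response. By gene order, the first 4 runs of 25 genes had median differences from -0.26 to 0.01, and the 12 runs from PGM5 to EHMT1 had medians from 0.23 to 0.64. Chromosome 20, which carries EYA2, held 49 genes higher and 4 lower among 268, with medians of 0.23 for the difference and -0.32 for the D425 response, and all 11 of its runs were between 0.17 and 0.44. In the other direction, chromosome 6 had 62 of 471 genes lower (13.2%), chromosome 22 had 41 of 240 (17.1%) and chromosome 18 had 21 of 137 (15.3%, median -0.28).

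Library by library, the median deviation of chromosome 9 genes from the D425 control mean was -0.437, -0.327 and -0.36 (log2) with hairpin 8, and -0.136, 0.0443 and 0.0785 in the controls, so that control replicate 1 stood closest to the hairpin libraries. With hairpin 6 in D425 it was -0.408, -0.343 and -0.334, and in D458 hairpin 8 it was -0.0653, 0.00384 and 0.00935. Chromosome 20 gave -0.357, -0.296 and -0.305 with hairpin 8 in D425. With the genes of both chromosomes left out, a choice made after seeing the data, 709 genes were called higher (5.10% of 13898) and 806 lower (5.80%). What part a shift of whole chromosomes between the D425 groups has in single genes was not tested. Of genes described here, CTSV, RPL12, RPL7A, RPL35, WNK2, SEMA4D, NDUFA8, UNC13B and PHF19 lie on chromosome 9, and EYA2, RPS21, BMP7, ASXL1, BPIFB4 and NTSR1 on chromosome 20.

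**Figure D5:**
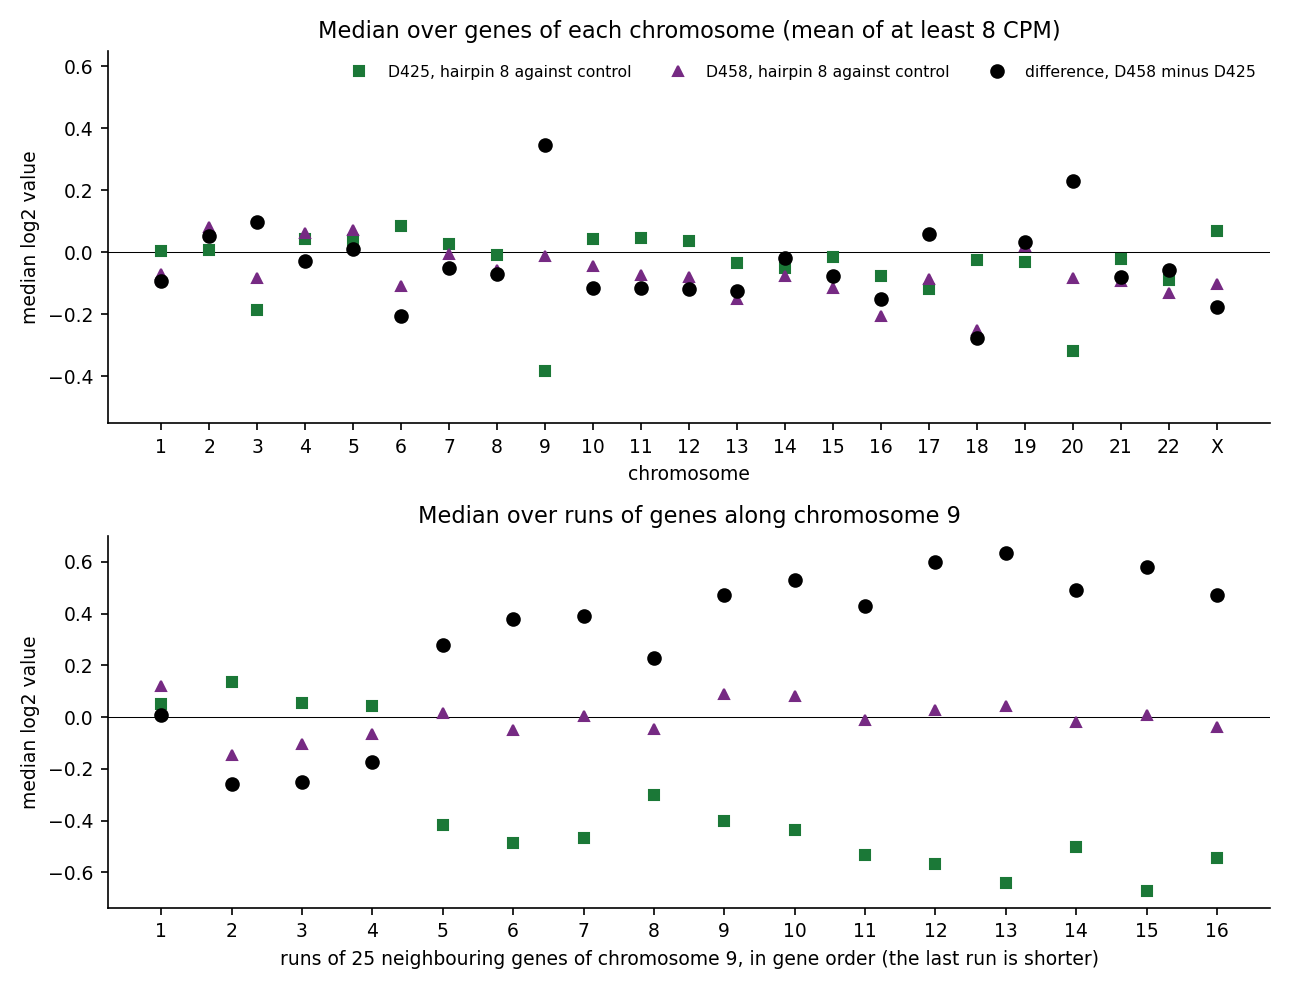
The upper panel gives, for each chromosome, the median over genes with at least 8 CPM of the log2 hairpin 8 change in D425 (squares), in D458 (triangles) and of their difference (circles); chromosomes 9 (0.34) and 20 (0.23) have the highest median differences. The lower panel gives the same medians for runs of neighbouring genes along chromosome 9, in gene order without positions, where the D425 medians lie near or above 0 in the first 4 runs and below -0.30 in the other 12.

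The shares given with each list below stand beside 6.19% higher and 5.65% lower over all genes, and a share near these is no result about the list. With the replicate block within lines, 1999 of all 14850 genes were higher and 1935 lower. Without single libraries, 946 to 2322 genes passed in all. List counts with the block or without a library are to be read beside these totals. By themselves they are no result about a list. In Hedgehog signalling, SMO transmits the signal and GLI proteins carry it to the genome. GLI2, mainly an activator, gave 35.1, 44.8 and 45.2 CPM and 28.1, 31.9 and 34 CPM in D425, against 0.533, 0.342 and 0.376 CPM and 8.61, 3.78 and 2.89 CPM in D458. It rose 12.2-fold in D458, with no pass in D425, a difference of 4.02 ± 0.61 (adjusted p = 0.000902). SMO rose from 5.95, 9.82 and 9.47 CPM to 20.7, 14.8 and 15.9 CPM in D458, with a difference of 1.07 ± 0.27 (adjusted p = 0.0171). GLI3, mainly a repressor, did the reverse: it rose from 0.183, 0.485 and 0.540 CPM to 8.12, 9.70 and 9.16 CPM in D425 and had 4 and 2 counts in D458, a difference of -5.46 ± 1.34 (adjusted p = 0.0164), lost without D458 control replicate 3 (adjusted p = 0.25). In the list of 15 the count was 2 higher and 1 lower (13.3% and 6.67%).

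In the WNT pathway 5 of 37 genes were higher in D458 (13.5%) and 0 lower. FZD4, a WNT and norrin receptor, gave 33.4, 48.9 and 37.7 CPM and 16.8, 18 and 20.1 CPM in D425, against 1.02, 1.42 and 0.918 CPM and 5.53, 3.39 and 2.93 CPM in D458. It fell in D425 and rose in D458 with no overlap in either line, a difference of 2.96 ± 0.39 (adjusted p = 0.000309). KREMEN2, which with DKK proteins withdraws WNT coreceptors, followed the same pattern at -1.24 ± 0.15 (adjusted p = 6.1e-05) and 0.45 ± 0.15 (adjusted p = 0.0418), a difference of 1.69 ± 0.21 (adjusted p = 0.000151). TCF7, a transcription factor of the pathway, fell in D425 from 30.9, 31.7 and 38 CPM to 19.8, 20.5 and 15.9 CPM and had a difference of 1.27 ± 0.26 (adjusted p = 0.00646). The WNT count was 3 without D425 control replicate 2, D425 control replicate 3, D458 control replicate 1 or D458 control replicate 2, and 8 higher and 3 lower with the replicate block.

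Of 26 Notch genes, 1 higher and 3 lower (3.85% and 11.5%) passed. HEYL, a Notch target, rose in D425 from 14.8, 10.1 and 7.21 CPM to 28.1, 28.3 and 34 CPM, while D458 gave 36.5, 37.3 and 32.9 CPM and 41.4, 44.4 and 44.9 CPM. Its difference was -1.20 ± 0.24 (adjusted p = 0.00529). MAML2, a Notch coactivator, rose 2.26-fold in D425 and did not pass in D458 (difference -1.02 ± 0.23, adjusted p = 0.0106). The Notch count was 2 without D425 control replicate 2 or D425 control replicate 3, and 2 higher and 6 lower with the block. Among 47 BMP and TGF-beta genes, 3 higher and 2 lower (6.38% and 4.26%) passed. The ligand BMP7 rose in both lines, 3.40-fold in D425 and 1.41-fold in D458, and the smaller D458 rise gave a difference of -1.27 ± 0.19 (adjusted p = 0.000684). Secreted antagonists of BMP ligands had differences of opposite sign: NOG rose from 62.9, 40.5 and 41.9 CPM to 89.4, 72.3 and 61.9 CPM in D425 and from 17.8, 16.2 and 14.1 CPM to 95.4, 56.3 and 59.4 CPM in D458 (difference 1.51 ± 0.30, adjusted p = 0.00493), while CHRD rose from 2.23, 2.98 and 1.75 CPM to 4.72, 4.46 and 5.45 CPM in D425 and fell from 37.7, 32.5 and 38.4 CPM to 19.5, 21.6 and 21.8 CPM in D458 (difference -1.87 ± 0.28, adjusted p = 0.000766). ACVR1, a receptor of BMP ligands, rose in D458, did not pass in D425, and had a difference of 0.91 ± 0.21 (adjusted p = 0.0128). With the block, 6 higher and 4 lower BMP and TGF-beta genes passed. Of 28 growth factor receptor tyrosine kinases, 3 higher and 3 lower (10.7% and 10.7%) passed. IGF1R rose by 0.36 in D425 and fell by 0.33 in D458 on the log2 scale (difference -0.69 ± 0.14, adjusted p = 0.00585), and FGFR1 did the reverse at -0.63 ± 0.18 (adjusted p = 0.022) and 0.58 ± 0.19 (adjusted p = 0.0359) (difference 1.21 ± 0.26, adjusted p = 0.00815). The receptor count was 3 without D425 hairpin 8 replicate 1, D425 control replicate 2 or D458 control replicate 2 and 10 without D425 control replicate 1, and 8 higher and 4 lower with the block.

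Photoreceptor genes, a feature of Group 3 tumours, were called in both directions. Of 34 genes of phototransduction and photoreceptor structure, 8 were higher in D458 (23.5%) and 5 lower (14.7%), beside 6.19% and 5.65% of all genes. CRX, the transcription factor of photoreceptors, is not among these 34. It is in a list of 10 tested retinal transcription factors, with 1 called higher and 1 lower (10% and 10%) and a median of -0.07. CRX gave 21.3, 30.1 and 26.8 CPM and 20.8, 22.4 and 26.6 CPM in D425, with overlap. In D458 it gave 24.5, 20.4 and 18.2 CPM and 58.7, 39 and 42.3 CPM, where all hairpin 8 libraries were above the controls. Its difference was 1.31 ± 0.26 (SE, adjusted p = 0.00485). CNGB3, a subunit of the cone channel, rose in D458 from 2.04, 2.59 and 2.75 CPM to 15.9, 9.17 and 7.56 CPM and did not pass in D425, a difference of 2.97 ± 0.58 (adjusted p = 0.00457). ABCA4, the retinoid transporter of outer segments, rose in D458 from 17.8, 11.9 and 13.2 CPM to 66, 33.3 and 39.9 CPM, a difference of 1.95 ± 0.41 (adjusted p = 0.00707). PROM1, which shapes photoreceptor discs, rose in both lines and more in D458 (difference 0.56 ± 0.13, adjusted p = 0.0102). On the other side, NEUROD1 rose in D425 from 68.8, 53.8 and 27.1 CPM to 125, 137 and 113 CPM and did not pass in D458, at 272, 331 and 279 CPM and 234, 291 and 282 CPM. That difference was -1.46 ± 0.32 (adjusted p = 0.00995). EYS, a retinal matrix protein, is also not among the 34. It is in the list of 11 tested Group 3 markers, with 1 called higher and 2 lower (9.09% and 18.2%). EYS rose 2.46-fold in D425 with a difference of -1.02 ± 0.16 (adjusted p = 0.00103). The count of photoreceptor genes was 7 without D425 control replicate 2, D425 control replicate 3 or D458 control replicate 2 and 6 without D458 control replicate 3.

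Neural transcription factors passed in both directions. Of 10 SOX genes, 2 higher and 3 lower (20% and 30%) passed, and the median difference was -1.03. SOX21 fell from 23.6, 40.1 and 47.4 CPM to 13.3, 23.1 and 17.6 CPM in D425 and rose from 0.355, 0.684 and 0.417 CPM to 1.43, 1.74 and 1.61 CPM in D458, with separate groups in both lines and a difference of 2.76 ± 0.43 (adjusted p = 0.000858). SOX5 rose in D425 from 0.256, 0.224 and 0.191 CPM to 2.73, 0.951 and 1.29 CPM, against 17, 17.8 and 21 CPM and 32.7, 28 and 28.5 CPM in D458 (difference -2.20 ± 0.52, adjusted p = 0.0129). SOX11 had 0 counts in D425 controls and 9 in D425 hairpin 8, with 101, 123 and 110.3 CPM and 105, 102 and 101 CPM in D458, and its call was lost without D425 hairpin 8 replicate 1, D425 control replicate 2 or D425 control replicate 3 (highest adjusted p = 0.212). The 22 D458 genes above were also higher in sum in D425 hairpin 8 than in D425 controls, and the part of this in SOX11 was not tested. The SOX count was 2 without D425 hairpin 8 replicate 1 or D425 control replicate 2 and 3 without D425 control replicate 3. Of 30 neurogenic basic helix-loop-helix and developmental factors, 4 higher and 4 lower (13.3% and 13.3%) passed, and 5 higher and 10 lower with the block. NEUROG2, a proneural factor, rose from 6 to 82 counts in D458 and had 382 and 493 counts in D425 (difference 3.2 ± 0.62, adjusted p = 0.00419). ZNF536 rose from 11 to 194 counts in D458, with 58 and 41 in D425 (difference 4.44 ± 0.70, adjusted p = 0.00101). BHLHE41, a repressor of the circadian system, rose 1.97-fold in D425 (difference -1.06 ± 0.22, adjusted p = 0.00575).

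Of 58 genes of the neuronal cytoskeleton and synaptic vesicles, 4 were higher (6.90%) and 7 lower (12.1%) in D458, with a median of -0.38; the D425 median was 0.67 and the D458 median 0.01. RAB3B, a vesicle GTPase, gave 48, 43.7 and 48.8 CPM and 89.2, 77.9 and 77.2 CPM in D425, against 50.5, 45.2 and 44 CPM and 25.5, 35.4 and 32.5 CPM in D458. Its D425 libraries rose and its D458 libraries fell without overlap, a difference of -1.38 ± 0.16 (SE, adjusted p = 7.44e-05). UNC13B, a priming factor of vesicle release, rose 1.56-fold in D425 and did not pass in D458 (difference -0.73 ± 0.16, adjusted p = 0.00945). The vesicle protein SV2C went the other way, from 9.47, 11.4 and 11.1 CPM to 3.59, 4.72 and 5.79 CPM in D425 and from 3.33, 3.32 and 2.63 CPM to 8.16, 5.52 and 5.99 CPM in D458 (difference 2.26 ± 0.34, adjusted p = 0.000684). TUBB4A, a neuronal tubulin, rose 4.29-fold in D458 (difference 2.10 ± 0.45, adjusted p = 0.00783). The count was 5 without D425 control replicate 2 and 6 without D425 control replicate 3 or D458 control replicate 1, and 8 higher and 18 lower with the block. Of 48 voltage-gated ion channel genes 2 higher and 5 lower (4.17% and 10.4%) passed; KCNS3 rose by 0.53 in D425 and fell by 0.64 in D458 on the log2 scale (difference -1.17 ± 0.25, adjusted p = 0.00742). That count was 4 without D425 hairpin 8 replicate 1 or D458 control replicate 1, 3 without D425 hairpin 8 replicate 2, D458 hairpin 8 replicate 3 or D458 control replicate 2, 1 without D425 control replicate 2 and 2 without D425 control replicate 3 or D458 control replicate 3, and 7 higher and 11 lower with the block. In axon guidance, 5 higher and 1 lower (8.77% and 1.75%) of 57 passed. Besides PLXND1, the semaphorin genes SEMA6C (difference 1.91 ± 0.40, adjusted p = 0.00689), SEMA4D (1.32 ± 0.26, adjusted p = 0.00423) and SEMA3A (1.03 ± 0.25, adjusted p = 0.0157) had a higher response in D458. SEMA6C fell from 29.6, 51.4 and 56 CPM to 11.7, 18.9 and 21.5 CPM in D425, and SEMA3A rose in D458 from 22.6, 23.9 and 24.2 CPM to 52.4, 37.3 and 30.6 CPM. The guidance count was 15 without D425 control replicate 1, and 12 higher and 7 lower with the block.

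Of 28 integrin and laminin genes, 6 higher and 1 lower (21.4% and 3.57%) passed. ITGA9, an integrin subunit, gave 18.4, 19.7 and 20.4 CPM and 14.8, 16.6 and 14.5 CPM in D425, against 0.577, 0.635 and 0.626 CPM and 2.63, 1.48 and 1.27 CPM in D458, with a difference of 1.91 ± 0.35 (adjusted p = 0.00288). LAMA1, a laminin chain, rose in D458 from 39.3, 53.9 and 47.1 CPM to 95.9, 76.4 and 71.2 CPM; its difference of 0.84 ± 0.22 (adjusted p = 0.023) was lost without D425 control replicate 2 or 3, D425 hairpin 8 replicate 1 or D458 control replicate 1 (highest adjusted p = 0.0618). The integrin and laminin count was 1 without D425 hairpin 8 replicate 1 or D425 control replicate 3, 2 without D425 control replicate 2, 4 without D458 hairpin 8 replicate 1 or D458 control replicate 1 and 3 without D458 control replicate 2 or D458 control replicate 3, and 11 higher and 3 lower with the block. NID1, which links laminin to collagen IV in basement membranes, rose from 17.5, 17.1 and 14.8 CPM to 112, 166 and 168 CPM in D458 and gave 38.6, 45.8 and 30.1 CPM and 41.1, 53.9 and 29.2 CPM in D425. All D458 hairpin 8 libraries were above 110 CPM and the D425 groups overlapped, a difference of 3.06 ± 0.32 (SE, adjusted p = 3.91e-05). VCAN, a matrix proteoglycan, rose from 17 to 41 counts in D425 and fell from 37.8, 42.7 and 41.5 CPM to 31.3, 21.9 and 18.8 CPM in D458 (difference -1.99 ± 0.40, adjusted p = 0.00543). LOXL3, which crosslinks matrix proteins, fell in D458 by 0.74 on the log2 scale (difference -0.98 ± 0.19, adjusted p = 0.00443). The matrix glycoprotein and protease list of 58 had 5 higher and 5 lower (8.62% and 8.62%), and the count was 6 without D425 hairpin 8 replicate 1 and 16 without D425 control replicate 1, and 10 higher and 7 lower with the block.

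Beside these matrix and integrin genes, 12 fibroblast markers summed to 22.8 to 40.6 CPM in D425 controls and 79.7 to 150 CPM in D425 hairpin 8, and to 12 to 22.9 CPM and 45.3 to 105 CPM in D458. THY1, FAP and POSTN were at 0 in D425 controls, COL3A1, PDGFRA, THY1, FAP and POSTN in D458 controls, and FAP and POSTN in D458 hairpin 8. Of the 9 tested, 4 had a positive difference, and the list's median difference was -1.02. The list's medians were 2.22 in D425 and 2.48 in D458, with 5 members raised in each line. DCN (difference 3.30, adjusted p = 0.0225) and PDGFRB (1.55, adjusted p = 0.0416) were called higher in D458 and 0 members lower. The count was 0 without D425 hairpin 8 replicate 1 and 1 without D425 hairpin 8 replicate 2, D425 control replicate 1, D425 control replicate 2, D458 hairpin 8 replicate 1, D458 control replicate 1, D458 control replicate 2 or D458 control replicate 3. The 11 epithelial markers summed to 100 to 233 CPM in D425 controls and 180 to 313 CPM in D425 hairpin 8, and to 2.17 to 2.93 CPM and 3.1 to 4.66 CPM in D458. CLDN3 was called higher (adjusted p = 0.0314), with 0 counts in D458 controls, and KRT17 lower (-2.86, adjusted p = 0.0422); the count was 0 without D425 hairpin 8 replicate 1, D425 control replicate 2, D425 control replicate 3, D458 hairpin 8 replicate 3, D458 control replicate 1 or D458 control replicate 2 and 1 without D458 hairpin 8 replicate 1, D458 hairpin 8 replicate 2 or D458 control replicate 3. Endothelial markers summed to 10.9 to 21.6 CPM in D425 controls and 13.6 to 24.3 CPM with hairpin 8. In D458 they gave 2.09 to 2.59 and 3.04 to 4.06 CPM. Leukocyte markers gave 3.51 to 5.29 and 4.06 to 6.29 CPM in D425, and 6 to 9.33 and 4.89 to 8.96 CPM in D458. Astrocyte and oligodendrocyte markers gave 58.8 to 84.8 and 46.7 to 85.6 CPM in D425, and 175 to 228 and 164 to 189 CPM in D458. Of their 4 tested, SLC1A3 was called higher (difference 0.94, adjusted p = 0.0269). That count ran from 0 to 3 without single libraries. The part of other cell types in the matrix and integrin results was not tested. Group 3 medulloblastoma markers summed to 4580 to 7070 CPM over all 4 groups, with BARHL1 at 0 in each. In bulk libraries, fewer cells of a type and less RNA per cell cannot be told apart.

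Among metabolic regulators, ATF4, the transcription factor of the amino acid response, gave 438, 486 and 494 CPM and 419, 404 and 377 CPM in D425, against 451, 433 and 434 CPM and 512, 513 and 516 CPM in D458. The libraries fell in D425 and rose in D458 without overlap, a difference of 0.46 ± 0.08 (SE, adjusted p = 0.00271). Of 39 genes of this response 6 higher and 2 lower (15.4% and 5.13%) passed; the count was 3 without D425 hairpin 8 replicate 1, D425 hairpin 8 replicate 2, D458 hairpin 8 replicate 3 or D458 control replicate 3, 2 without D425 control replicate 2, 1 without D425 control replicate 3 and 5 without D458 control replicate 2. The subunits of the mitochondrial pyruvate carrier had differences of opposite sign: MPC2 was higher in D458 (difference 1.17 ± 0.23, adjusted p = 0.00449) after a fall in D425 and a rise in D458, and MPC1 was lower (difference -0.79 ± 0.16, adjusted p = 0.00522) after a rise in D425 from 10.6, 8.50 and 8.70 CPM to 16.6, 15.8 and 15 CPM. PDK2, a kinase that restrains pyruvate dehydrogenase, rose from 10.5, 11.9 and 13.3 CPM to 27.6, 25.7 and 24.5 CPM in D458 and gave 25.1, 25 and 23.4 CPM and 24.7, 22.4 and 29.3 CPM in D425, a difference of 1.07 ± 0.16 (adjusted p = 0.000766). In all, 4 higher and 2 lower (12.5% and 6.25%) of 32 genes of glycolysis and pyruvate handling passed, and the count was 3 without D425 hairpin 8 replicate 1 or D425 control replicate 3, and 8 higher and 4 lower with the block. Of 75 oxidative phosphorylation genes, 7 higher and 1 lower (9.33% and 1.33%) passed, and 21 higher and 4 lower with the block. UQCRB of complex III rose in D458 (difference 0.40 ± 0.08, adjusted p = 0.00655), NDUFB5 of complex I fell in D425 and rose in D458 (difference 0.48 ± 0.10, adjusted p = 0.00823), ATP5I of the ATP synthase rose in D458 (difference 0.62 ± 0.14, adjusted p = 0.00942), and NDUFA8 of complex I fell in D425 (difference 0.55 ± 0.13, adjusted p = 0.0117).

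BNIP3, a hypoxia-induced gene of mitophagy, fell in D458 from 78.4, 81.1 and 77.7 CPM to 49.5, 54.1 and 57.6 CPM and did not pass in D425, a difference of -0.51 ± 0.11 (adjusted p = 0.00783). It was the only HIF target called lower. NDUFA4L2, a mitochondrial protein, fell in D425 and did not pass in D458 (difference 2.23 ± 0.55, adjusted p = 0.0167), and was lost without D425 control replicate 2 (adjusted p = 0.0502). The glycolytic enzyme gene ENO2 fell in D425 as well (difference 0.75 ± 0.19, adjusted p = 0.02), and was lost without D425 hairpin 8 replicate 1 or D425 control replicate 3 (highest adjusted p = 0.0569). ANKRD37 (difference 0.97 ± 0.29, adjusted p = 0.0384) was lost without 11 of the 12 libraries, each left out in turn, and STC2 had a difference of 1.39 (adjusted p = 0.0426). The HIF target list of 34 had 4 higher and 1 lower (11.8% and 2.94%), and its count was 2 without D425 hairpin 8 replicate 1, D425 control replicate 2 or D425 control replicate 3 and 3 without D458 hairpin 8 replicate 2, D458 control replicate 1 or D458 control replicate 3, and 5 higher and 3 lower with the block. SREBF2, the transcription factor of cholesterol synthesis, fell by 0.26 in D425 and rose by 0.29 in D458 on the log2 scale (difference 0.54 ± 0.12, adjusted p = 0.00942). Its list of 32 enzymes and regulators had 1 higher and 2 lower (3.12% and 6.25%), and 3 higher and 5 lower with the block, and the count was 1 without D425 hairpin 8 replicate 1 or D425 control replicate 3. Among 48 lysosome and autophagy genes, 4 higher and 2 lower (8.33% and 4.17%) passed, and 11 higher and 5 lower with the block. The protease gene CTSB fell from 237, 257 and 207 CPM to 148, 193 and 202 CPM in D425 and rose from 58, 58 and 60.5 CPM to 91.2, 90.5 and 95.3 CPM in D458 (difference 1.02 ± 0.18, adjusted p = 0.00211). TFEB, a transcription factor of lysosomal genes, rose from 12 to 74 counts in D458 and had 298 and 146 counts in D425 (difference 3.52 ± 0.68, adjusted p = 0.0041). ATP6V1A, of the proton pump that acidifies lysosomes, rose in D458 (difference 0.77 ± 0.15, adjusted p = 0.00455).

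Of 39 genes of DNA methylation and Polycomb complexes, 5 higher and 1 lower (12.8% and 2.56%) passed; the count was 3 without D425 hairpin 8 replicate 1, D425 control replicate 3 or D458 control replicate 1, and 9 higher and 3 lower with the block. DNMT3A, a de novo methyltransferase, rose from 60.3, 84.5 and 82.4 CPM to 97.7, 108 and 106 CPM in D458, and D425 gave 58.5, 79.9 and 74.9 CPM and 47.6, 58.4 and 58.4 CPM, a difference of 0.83 ± 0.19 (adjusted p = 0.00944). PHF19, which guides Polycomb repressive complex to chromatin, fell 2.17-fold in D425 (difference 1.19 ± 0.27, adjusted p = 0.0106), and ASXL1, a partner of the histone H2A deubiquitinase, fell 1.44-fold (difference 0.49 ± 0.12, adjusted p = 0.0149). In the BCL2 family, 2 higher and 1 lower (16.7% and 8.33%) of 12 passed, all 3 promoters of cell death. BOK rose 2.62-fold in D458 (difference 1.32 ± 0.26, adjusted p = 0.0042) and BAD fell 1.38-fold in D425 (difference 0.79 ± 0.17, adjusted p = 0.0066). BID fell in both lines and more in D458 (difference -0.45 ± 0.13, adjusted p = 0.0388), a call lost without 10 of the 12 libraries, each left out in turn (highest adjusted p = 0.118). With the block 4 BCL2 family genes were higher and 2 lower. In DNA repair, 1 higher and 3 lower (1.82% and 5.45%) of 55 passed. RAD51D, of homologous recombination, fell 1.95-fold in D458 (difference -1.22 ± 0.24, adjusted p = 0.0041), and LIG4, of end joining, rose in both lines and more in D458 (difference 0.70 ± 0.17, adjusted p = 0.0144). The repair count was 2 without D458 control replicate 3, and 4 higher and 9 lower with the block.

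The DNA replication list and the G2 and mitosis list had no gene that passed in the reported fit. Of 15 CDK inhibitors and D-type cyclins, 1 higher and 1 lower (6.67% and 6.67%) passed. These were CDKN2C (difference 2.02, adjusted p = 5.6e-05) and CCND2 (-3.79, adjusted p = 0.0258). Their list's count was 1 without D425 hairpin 8 replicate 1 or D425 control replicate 3, and 2 higher and 3 lower with the block. Of 55 DNA replication genes 0 passed with edgeR, 8 had an unadjusted p under 0.05 and DESeq2 called 1; with the replicate block 0 were higher and 11 lower. The list's median was -0.25, from -0.25 in D425 and -0.48 in D458, and 7 of 55 genes had a positive difference. Of 58 genes of G2 and mitosis 0 passed with edgeR, 4 had an unadjusted p under 0.05, DESeq2 called 1 and the block 4 higher and 4 lower, with a median of 0.01 and nearly equal medians of -0.37 and -0.37 in the lines. The count of replication genes was 1 without D425 hairpin 8 replicate 3, D458 hairpin 8 replicate 1 or D458 hairpin 8 replicate 2 and 2 without D425 control replicate 1, and that of mitosis genes 1 without D425 hairpin 8 replicate 3 or D458 control replicate 1 and 2 without D458 hairpin 8 replicate 1. Of 16 retinoic acid genes 0 passed with edgeR, 3 had an unadjusted p under 0.05, DESeq2 called 1, and with the block 1 was higher and 1 lower; the count was 1 without D425 control replicate 1, D458 hairpin 8 replicate 1 or D458 control replicate 1.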

How the data were processed

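RNA was sequenced from stranded poly(A) libraries of 18 samples. The values are whole-number read counts per gene that the authors deposited. Per the submitters' processing notes, reads were handled with TopHat2 and Bowtie2 on GRCh37/hg19 and with HTSeq, beside bcl2fastq, FastQC, Picard and SAMtools. The sources used here give no versions, strand setting or treatment of reads with several matches, so genes with near-identical copies or antisense partners are uncertain.

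From the counts, edgeR 4.0.16 (R 4.3.3) was used with TMM scaling, filterByExpr at a minimum count of 10 and the robust quasi-likelihood test. All 18 libraries in 6 groups shared the estimate of the spread, the contrast used 12, and p-values were adjusted by the Benjamini-Hochberg method over 14850 genes. DESeq2 1.42.0, limma-voom (limma 3.58.1), other scalings and filters, 12 libraries alone, replicate blocks and the omission of each library were alternatives. On simulated counts with 14693 genes tested, the test recovered 76 of 100 genes changed by log2 1 and 99 of 100 changed by log2 2, with 10 false calls. The simulated libraries were drawn independently, without a replicate or date effect. Changes were made only in D458 hairpin 8 libraries and only in genes above a minimum CPM in D458. These rates therefore do not cover genes of few counts or spread shared by libraries of a date. The depth, 21260369 to 31552051 counts per library, limits genes of few counts. Floors of 3 counts cover counting error only, while standard errors and intervals come from the spread between libraries.

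Replicate numbers come from the labels. Same-numbered control and hairpin 8 libraries deviated together, with correlations of 0.54, 0.28 and 0.15 in D425 and 0.47, 0.33 and 0.45 in D458. Crossed pairs of replicates 2 and 3, which share a date, gave 0.23 and 0.25 in D425 and 0.19 and 0.28 in D458. Pairs of replicate 1 with another number gave -0.46 to -0.25 in D425 and -0.44 to -0.3 in D458. The values set replicate 1 apart, and in D425 they do not pair replicates 2 and 3 by number.

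The named genes were EYA2, called members of the EYA and MYC networks, MYC, OTX2 and MYCN, the 10 largest differences in each direction at 1 CPM or more, the 5 smallest p-values in each direction at 10 CPM or more, the 8 strongest genes of each opposite pattern, and up to 4 called members with the smallest p of each list with at least 3 called. Members and lists were chosen with earlier results of these data known.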

Additional observations from a re-analysis of the deposited data

Results flagged for a closer look

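The criterion here was a test of the difference between the lines itself, so each of the 1758 called genes meets it, including the 119 genes lower in D425 and higher in D458 and the 74 with the opposite pattern. Among them the log2 difference was 4.62 for RAB11FIP4, 4.22 for CXCL14 and 3.59 for S100A10, which fell in D425 and rose in D458. The D458 rise of CXCL14 was from 11 to 59 counts. The part of the other line's RNA in the D458 rises of CXCL14 and S100A10 was not tested. The log2 difference was -3.67 for AP3B2 and -2.53 for LOC650368, which rose in D425 and fell in D458. Groups of 3 libraries are too small for a test of single outlying samples.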

How the results depend on the processing

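The sign of each gene called in the reported fit held in every alternative in which it was tested. With the replicate block within lines, 3934 genes passed in place of 1758 (1999 higher, 1935 lower), with 377 and 225 in the opposite patterns, 41 ribosomal protein genes, 5521 genes for the D425 effect alone and 5888 for the D458 effect alone. EYA2 (-0.89), MYC and OTX2 then passed. The block changed no other call among the named genes, and all 134 called ones kept theirs with it. A block across lines gave 3029 genes (1513 higher, 1516 lower) and 240 and 169 in the opposite patterns. The 12 libraries alone gave 1121 genes (462 lower), 36 in the D458-lower opposite pattern and 14 ribosomal protein genes; no filter on low counts gave 41 in that pattern. Leaving out libraries gave 75 to 2322 genes (57 to 1124 higher, 18 to 1198 lower), 12 to 167 and 4 to 103 in the opposite patterns, 1 to 27 ribosomal protein genes, 513 to 4146 for the D425 effect, 818 to 3562 for the D458 effect, and an EYA2 difference of -1.28 to -0.51. The cause of these shifts was not tested. Of 134 called named genes, 90 kept the call without any single library and 20 lost it without any of 6 or more of the 12 libraries, each left out in turn. Of 26 lists with at least 3 called members, 19 moved by over 1.5 times without some library, 14 of them without D425 control replicate 3.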
